A study of Rattus norvegicus with 15 samples.

Results

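The genes of the mitotic spindle and kinetochore were followed in the adrenal medulla of MENX rats, from normal tissue through hyperplasia to pheochromocytoma. They were taken by gene symbol from the tables of differentially expressed genes of this RNA-seq experiment: the Cenp, Kif, Aurk, *Bub1*, *Bub3*, Plk, Mad1, Mad2, *Spc24*, *Spc25*, Ska, Cdca and Ncap families and the single genes of the mitotic apparatus such as *Ndc80*, *Nuf2*, *Ttk*, *Tpx2*, *Prc1*, *Top2a* and *Mki67*. The name rule met 87 genes. Of these, 2 lie on chromosome X (*Cenpi* and *Kif4a*) and were left out, which gave 85 autosomal genes of the 8621 genes in the tables, on 17 chromosomes. By their known roles, 61 of the 85 act in mitosis and are called core mitotic genes here. The other 24 share only the family name: 21 kinesins that are mainly known for transport along microtubules, for cilia or for signaling, and *Plk2*, *Plk3* and *Mad2l2*, relatives of *Plk1* and *Mad2l1* with other main roles.

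The 15 libraries were made from macrodissected adrenal medullary tissue of 15 Sprague-Dawley rats, with 5 in each group. WT samples came from wildtype rats of 7 to 9.5 months, HYP samples from MENX rats of 4 to 5 months with a hyperplastic medulla, and PCC samples from MENX rats of 7 to 9.5 months with pheochromocytoma, a tumor of the chromaffin cells. MENX rats carry a spontaneous germline frameshift mutation in *Cdkn1b*, which encodes the CDK inhibitor p27, in every cell, so tissue around the tumor carries it too. Age and genotype cannot be told apart in HYP vs. WT, since the HYP rats were younger. Age and stage cannot be told apart in PCC vs. HYP, since the PCC rats were older. By the study's methods the PCC group mixes tumors of an earlier and an advanced stage. The sample labels do not say which is which, so PCC means and SDs run over both stages.

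Dividing cells build the kinetochore, a protein plate on the centromere of each chromosome, and the spindle of microtubules that attaches to it. A checkpoint holds the cell until all chromosomes are attached. The anaphase-promoting complex then releases the sister chromatids, motor proteins of the kinesin family move them apart, and the cell is cleft in cytokinesis. Most of these genes are transcribed mainly in G2 and M phase, through promoters bound by the DREAM and B-MYB-FOXM1 complexes, so their RNA in a tissue is widely used as a measure of its dividing cells. Adult chromaffin cells divide rarely. In bulk tissue, fewer cells that express a gene and less RNA per cell cannot be told apart.

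In such promoters a cell cycle homology region (CHR) of the letters TTTGAA or TTCGAA often lies near the start of transcription, with CCAAT boxes before it. A RefSeq promoter sequence of the rat assembly GRCr8, with 250 bases before and 50 after the annotated start, matched 73 of the 85 genes by symbol. On either strand, the CHR letters were in 38 of the 55 core mitotic promoters (69.1%), in 2 of the 18 promoters of the other kinesins and paralogs (11.1%), in 19.5% of 27457 promoters of the same length and in 13.4% of the 5718 promoters of genes in the tables. The letters CCAAT or ATTGG were in 58.2% of the core promoters, in 44.4% of those of the others and in 37.7% of all promoters, and at least 2 copies were in 41.8%, 11.1% and 11.5%. Both motifs together were in 26 core promoters (47.3%) and in 7.83% of all promoters. Such matches are a description of letters and were not tested as binding sites. The 150 bases before the start are shown for 5 core genes that hold both motifs in this stretch and for *Cenpv*, which holds neither there and is described below for its direction. These genes were chosen after their values had been seen, and CHR and CCAAT letters on either strand are in capitals.
Cdc20: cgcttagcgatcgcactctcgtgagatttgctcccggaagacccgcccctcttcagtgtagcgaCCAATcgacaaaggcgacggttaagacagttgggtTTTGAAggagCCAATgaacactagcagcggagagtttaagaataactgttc
Spc25: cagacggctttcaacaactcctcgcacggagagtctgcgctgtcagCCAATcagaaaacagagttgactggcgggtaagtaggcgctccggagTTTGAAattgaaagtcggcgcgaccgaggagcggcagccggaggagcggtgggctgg
Prc1: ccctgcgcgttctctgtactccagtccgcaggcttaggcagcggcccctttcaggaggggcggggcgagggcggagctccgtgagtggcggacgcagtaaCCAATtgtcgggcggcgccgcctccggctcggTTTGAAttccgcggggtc
Top2a: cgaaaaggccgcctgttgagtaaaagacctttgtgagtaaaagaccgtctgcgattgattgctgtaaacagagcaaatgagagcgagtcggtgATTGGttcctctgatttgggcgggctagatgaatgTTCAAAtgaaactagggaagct
Ncapg: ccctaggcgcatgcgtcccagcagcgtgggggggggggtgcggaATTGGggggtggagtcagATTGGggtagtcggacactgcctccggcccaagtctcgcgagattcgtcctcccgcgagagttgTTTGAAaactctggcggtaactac
Cenpv: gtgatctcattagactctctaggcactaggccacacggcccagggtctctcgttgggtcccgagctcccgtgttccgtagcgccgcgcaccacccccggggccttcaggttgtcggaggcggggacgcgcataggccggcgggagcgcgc
In GRCr8 these stretches, read on the strand of the gene, lie at chr5:137255800-137255949 (minus strand) for *Cdc20*, chr3:74396719-74396868 (minus strand) for *Spc25*, chr1:143659331-143659480 (plus strand) for *Prc1*, chr10:84473094-84473243 (minus strand) for *Top2a*, chr14:69645446-69645595 (minus strand) for *Ncapg* and chr10:47727680-47727829 (minus strand) for *Cenpv*.
The CHR letters began 51 bases before the start in *Cdc20*, 57 in *Spc25*, 18 in *Prc1*, 22 in *Top2a* and 24 in *Ncapg*.

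Reads counted on genes ranged from 16315018 to 23831269 per sample, as recovered from counts, FPKM and gene lengths. The 3 tables list only genes that the authors had called in the same samples: PCC vs. WT lists 7683, with 83 of the 85 genes, HYP vs. WT 4406, with 62, and PCC vs. HYP 3360, with 62. A high share of calls is therefore the rule in these tables, and a gene that is not listed was not analysed in that comparison. Class counts below cover listed genes only. Genes of the same roles that are in no table, such as *Ncaph*, *Ncaph2* and *Smc4*, are left out, so a class in which all genes rose need not be complete. Genes were called by edgeR's quasi-likelihood test (adjusted p under 0.05), and levels are CPM, counts scaled to library size in a way common to all samples. The split of calls over all listed genes depended on the scaling: in PCC vs. WT 54.8% of calls were higher with TMM and 76.3% with the listed totals, in HYP vs. WT the shares were 54.8% and 89.3%, and in PCC vs. HYP 49.2% with TMM, 68.4% with the listed totals, 70.7% with the recovered totals and 37.4% with DESeq2. Against TMM, the listed totals moved the median log2 fold change of all genes by 0.50, 0.46 and 0.15 in the 3 comparisons, the recovered totals by 0.29, 0.19 and 0.22, and DESeq2 by −0.17 in PCC vs. HYP. Fold changes below are those with TMM. *Cdkn1b* itself ranged from 44.6 to 72.1 CPM in WT, from 82.5 to 124 CPM in HYP and from 108 to 173 CPM in PCC. A frameshift need not lower the RNA, so this does not check the genotype.

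The tissue label was checked with markers. Of 13 chromaffin cell markers 9 were listed in all samples, none at 0, and their summed level was 1958 to 9175 CPM in WT, 10790 to 15114 CPM in HYP and 17518 to 36445 CPM in PCC. Of 13 adrenal cortex markers 8 were listed in all samples, none at 0, and their sum fell the other way, with 19924 to 43935 CPM in WT, 9783 to 25057 CPM in HYP and 726 to 11775 CPM in PCC. WT samples thus held RNA of the cortex, which surrounds the medulla. In WT5 the chromaffin markers stood at a median of 0.305 of the WT mean, the lowest of all samples. Of the other lists with values in all samples, 6 of 10 endothelial markers summed to 497 to 625 CPM in WT, 333 to 446 CPM in HYP and 212 to 394 CPM in PCC, and 3 of 6 fibroblast markers to 31.1 to 59.7 CPM, 89.7 to 121 CPM and 56.7 to 170 CPM. In the same order of groups, 6 of 8 Schwann and sustentacular markers summed to 56.2 to 108 CPM, 73.7 to 107 CPM and 52.0 to 92.7 CPM, and 2 of 15 leukocyte markers to 12.8 to 23.3 CPM, 34 to 45 CPM and 6.43 to 54.2 CPM. The sums cover markers that went different ways. Of the 6 endothelial markers, 4 were lower in PCC vs. WT and *Vwf* was higher, from a mean of 15.1 CPM in WT to 43.6 CPM in PCC. Of the 2 leukocyte markers, *Cd163* rose (log2 fold change 1.30) and *Cd8a* fell (−1.70) in PCC vs. WT. The Schwann and sustentacular sum is carried by *S100b*, which fell from a mean of 63.7 CPM in WT to 31.5 CPM in HYP and 7.07 CPM in PCC. The median level of the same 6 markers over the WT mean was 1.00, 2.22 and 2.46, and *Sox10*, *Gfap*, *Mbp* and *Erbb3* rose in PCC vs. WT. No marker listed in all samples was at 0. The part of these cells in the results on mitotic genes was not tested.

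The core mitotic genes were low in WT, higher in HYP and highest in PCC. The median over genes of the WT mean was 1.66 CPM, and 24 of the 61 were under 1 CPM. In HYP the median was 4.54 CPM over the 55 genes with values and in PCC it was 10.7 CPM over 60 genes, of which none was under 1 CPM. As a summary, the level of a sample is the median over the 54 genes with values everywhere of CPM divided by the WT mean. It was 0.976, 0.936, 0.872, 0.951 and 1.22 in WT1 to WT5. In HYP1 to HYP5 it was 2.91, 3.69, 3.10, 2.60 and 2.49, and in PCC1 to PCC5 it was 4.80, 12.2, 7.17, 10.5 and 4.22. The groups did not overlap, and PCC2 and PCC4 stood well above PCC1 and PCC5. The mean was 0.991 ± 0.133 for WT (SD, n = 5), 2.96 ± 0.476 for HYP and 7.77 ± 3.48 for PCC. Of the 54 genes, 53 had group means in the order WT, HYP, PCC, as had 43.9% of the 5492 genes with values in all samples, and in 23 every WT sample was below every HYP sample and every HYP sample below every PCC sample, against 7.52% of the 5492.

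**Figure D1:**
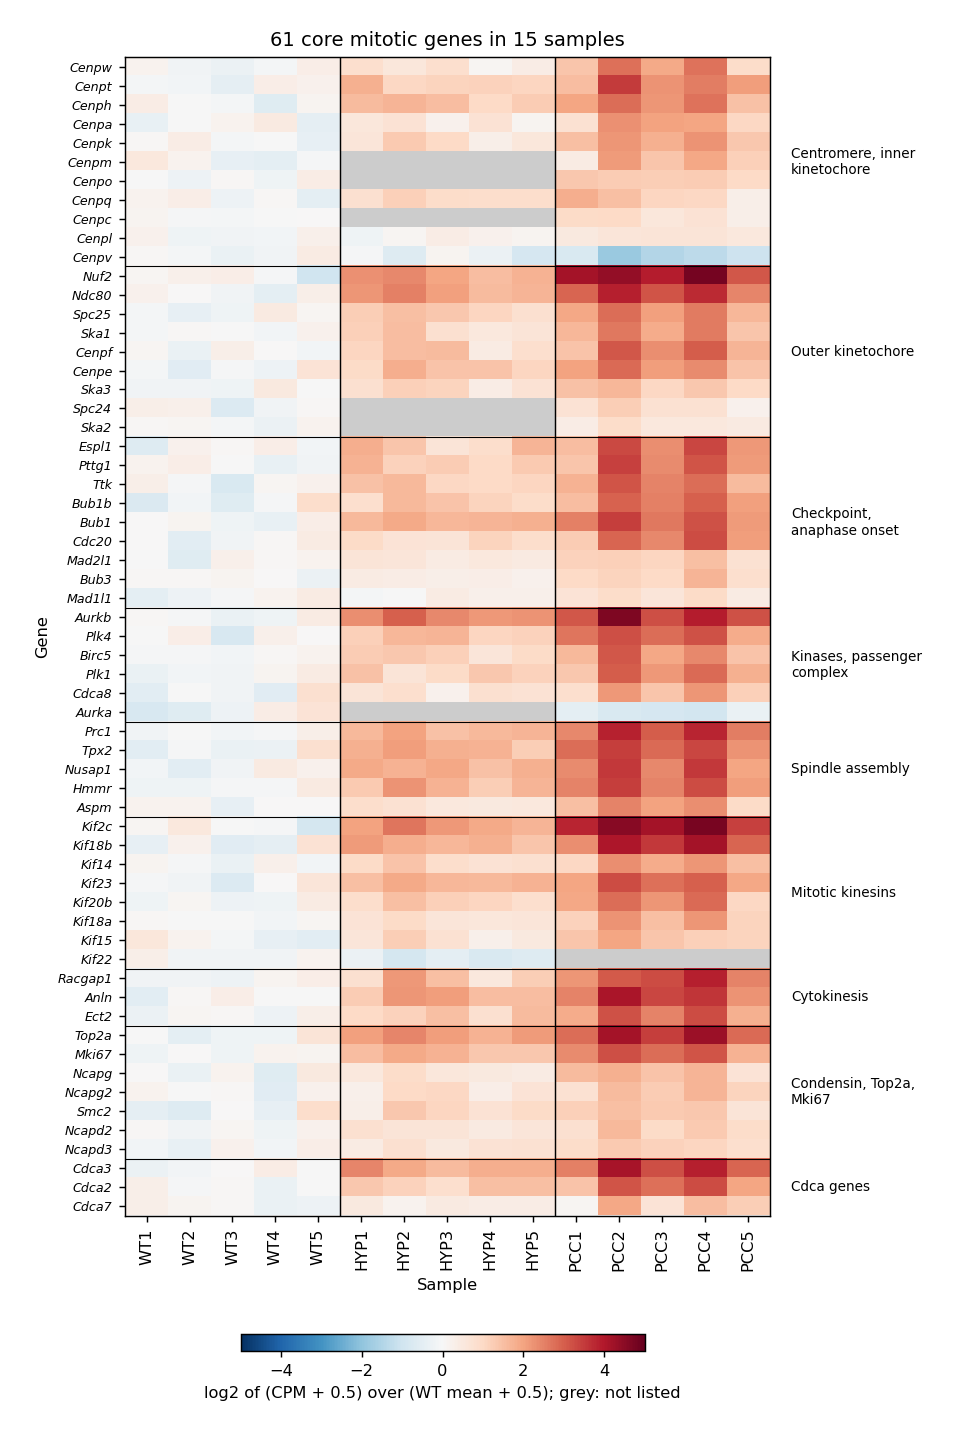
Level of 61 core mitotic genes (vertical axis, by role) in the 15 samples (horizontal axis), as log2 of CPM + 0.5 over the WT mean + 0.5. Red is above and blue below the WT mean, and grey marks genes not listed for a group. Nearly all genes redden from WT to HYP to PCC, most in PCC2 and PCC4, while *Cenpv*, *Kif22* and *Aurka* turn blue.

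The spread within PCC was wide. Among genes of at least 1 CPM on average, the SD of log2 CPM within PCC had a median of 0.606 over 54 core genes and of 0.424 over all 4983 genes, whereas in WT it was 0.301 over 31 and 0.367 over 4718, and in HYP 0.290 over 51 and 0.298 over 4912. PCC2 was the highest PCC sample for 38 of 60 core genes and PCC4 for 18, and PCC5 was the lowest for 35 and PCC1 for 23. In HYP, HYP2 was the highest for 32 of 55 genes. The cortex level, as the median over 8 markers of CPM divided by the WT mean, was 0.064 in PCC2 and 0.024 in PCC4, the lowest of all samples, and 0.244, 0.222 and 0.365 in PCC1, PCC3 and PCC5. Its part in the order of the tumors was not tested.

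**Figure D2:**
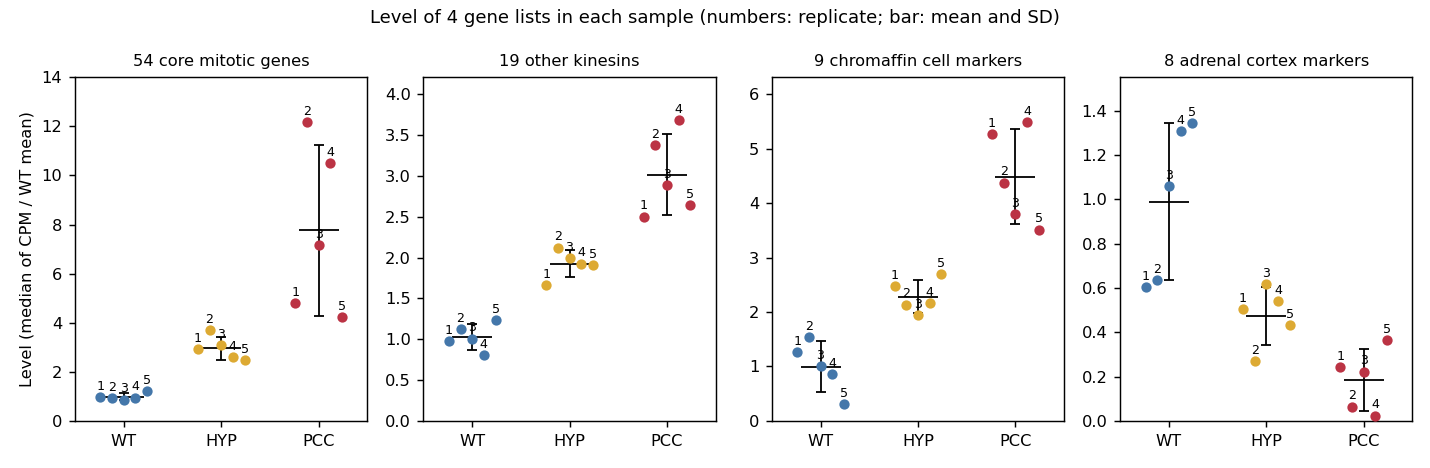
Level of 4 gene lists in each sample, as the median over genes of CPM divided by the WT mean (vertical axes, linear from 0), for WT, HYP and PCC. Points are samples with their replicate numbers, and bars give the mean and SD. The core mitotic level rises from 0.991 to 2.96 and 7.77, the other kinesins reach 3.02, chromaffin markers rise and cortex markers fall.

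In PCC vs. WT, the core mitotic genes rose almost as a block. Of 60 tested, 57 were higher (46.7% of the 7001 genes tested were), 1 was lower (38.5%) and 2 were not called. In 52 all PCC samples were above all WT samples (37.3% of the genes tested) and in 1 below (27.4%). Their median log2 fold change was 2.78, against 0.44 over all genes tested. Leaving out any 1 library left 55 to 57 genes higher. Genes that were already well expressed in WT changed less: for 11 tested with a WT mean of at least 5 CPM the median was 1.07, and for the 49 below that it was 3.09, where the WT level enters both numbers.

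At the centromere and inner kinetochore, 10 of 11 genes rose and 1 fell, with a median log2 fold change of 1.77. *Cenpa*, the histone H3 variant that marks centromeres, rose by 2.88 ± 0.59 (log2, SE; edgeR adjusted p = 0.00338), from a WT mean of 0.27 CPM. *Cenpw*, a histone-fold protein of the inner kinetochore, rose by 3.45 and *Cenpt*, its partner, by 3.28. *Cenpc*, which links the centromere to the outer plate, was at 16.1 to 19 CPM in WT and 21.1 to 34.4 CPM in PCC, and rose by only 0.71 ± 0.18 (adjusted p = 0.00982). *Cenpm* was at 0.939 to 2.36 CPM in WT and 2.19 to 8.20 CPM in PCC, groups that overlap, and rose by 1.77 ± 0.42 (adjusted p = 0.00748). *Cenpl* was at 3.07 to 4.41 CPM in WT and 5.24 to 6.01 CPM in PCC. Its groups did not overlap, and its rise of 0.62 ± 0.21 (adjusted p = 0.0403) was not called without any 1 of 8 libraries (all PCC samples, WT2, WT3 and WT4; adjusted p = 0.054 to 0.11).

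*Cenpv* was the single core gene called lower in PCC vs. WT. Its protein was described at centromeres, and it was by far the most abundant of the listed autosomal Cenp genes in WT, with 86.1, 77.8, 66.7, 73.3 and 112 CPM in WT1 to WT5. HYP samples had 78.7, 52.7, 90.8, 68.1 and 46.8 CPM and PCC samples 49.3, 22.6, 29.8, 33.6 and 40.3 CPM. All PCC samples lay below all WT samples, while HYP spanned both. The log2 fold change was −1.27 ± 0.21 in PCC vs. WT (adjusted p = 0.0011) and −1.03 ± 0.25 in PCC vs. HYP (adjusted p = 0.0301). The latter was not called without PCC2, PCC3, HYP1, HYP3 or HYP4 (adjusted p = 0.061 to 0.083).

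In the outer kinetochore, 8 of 9 genes rose, with a median of 2.63. *Nuf2*, a subunit of the Ndc80 complex that binds microtubule ends, rose from 1.92, 2.22, 2.37, 1.69 and 0.64 CPM in WT1 to WT5 to 39.9, 46.8, 34.0, 62.1 and 19.2 CPM in PCC1 to PCC5. No PCC sample came near the WT range, and the log2 fold change of 4.45 ± 0.42 (adjusted p = 9.9e-05) corresponds to 21.9-fold. Its partner *Ndc80* rose by 4.05 and *Spc25* by 3.09. *Spc24*, the remaining subunit, was at 1.06 to 2.60 CPM in WT and 2.41 to 5.34 CPM in PCC, with overlapping groups, and was not called (0.88 ± 0.33, adjusted p = 0.0624). *Cenpf*, a large coat protein of the outer plate, rose by 2.63 ± 0.38. *Ska3* and *Ska2*, of the complex that tracks shrinking microtubules, rose less, by 1.40 ± 0.24 and 0.56 ± 0.19 (adjusted p = 0.044). The call of *Ska2* was lost without any 1 of 8 libraries (PCC2, PCC3, PCC4 and all WT samples; adjusted p = 0.058 to 0.11).

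Per transcript length, the 4 subunits of the Ndc80 complex, which assemble in equal numbers, did not have equal RNA. FPKM in PCC was 23.6 ± 10.05 for *Nuf2*, 4.48 ± 2.13 for *Ndc80*, 4.81 ± 1.61 for *Spc24* and 3.83 ± 1.62 for *Spc25* (SD, n = 5). In WT it was 0.883 ± 0.385, 0.214 ± 0.074, 2.12 ± 0.77 and 0.358 ± 0.163 in that order. *Nuf2* thus exceeded its partners in PCC, whereas in WT *Spc24* was the most abundant. In the chromosomal passenger complex, FPKM in PCC was 22.3 ± 13.6 for *Aurkb*, 7.69 ± 4.69 for *Birc5* and 7.24 ± 3.57 for *Cdca8*, while in WT the range was 0.903 to 1.58. FPKM depend on the annotated gene length, which may differ from that of the expressed transcript. In RefSeq, *Nuf2* overlaps a pseudogene and *Spc25* overlaps *Nostrin*. The kit used does not mark the strand, so reads of such neighbors may enter these values.

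**Figure D3:**
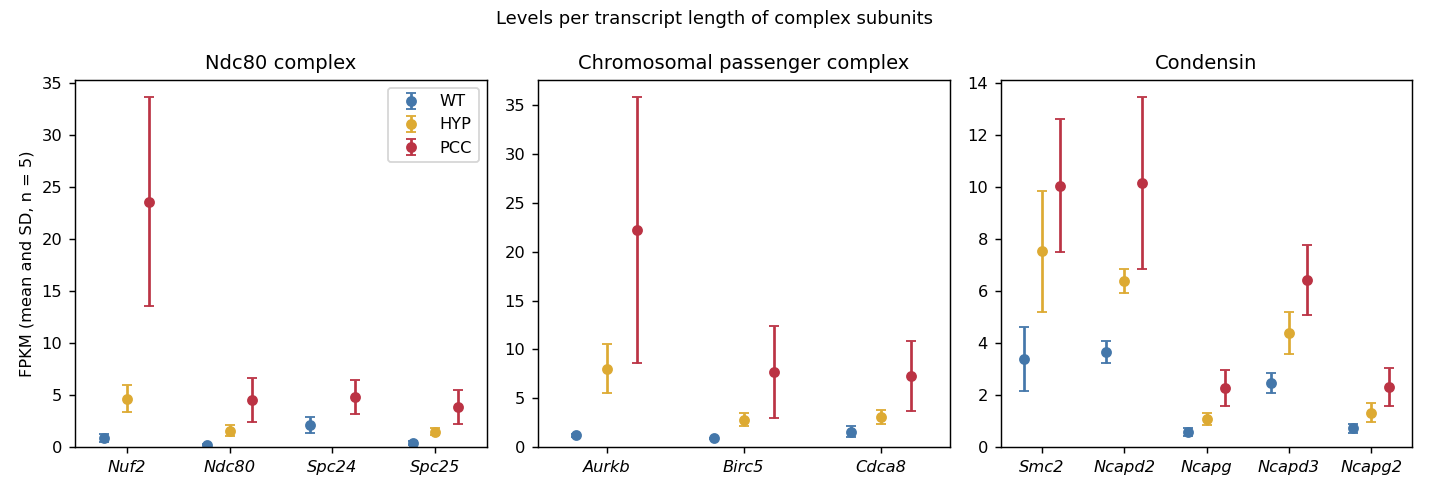
FPKM of the subunits of 3 complexes (horizontal axis, genes; vertical axis, FPKM from 0) as mean and SD of 5 samples in WT, HYP and PCC; *Spc24* was not listed with HYP values. In PCC, *Nuf2* (23.6) and *Aurkb* (22.3) stand above the other subunits of their complexes, and condensin subunits differ less between groups.

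All 9 listed genes of the spindle checkpoint and of anaphase onset rose, with a median of 3.18. *Bub1*, a checkpoint kinase, rose from 1.19 to 2.20 CPM in WT to 8.89 to 23.3 CPM in PCC (3.18 ± 0.33, adjusted p = 0.000116). *Cdc20*, the activator of the anaphase-promoting complex, rose from 1.56 to 3.49 CPM to 6.74 to 27.9 CPM (2.76 ± 0.38). *Espl1* (separase), *Pttg1* (securin, its inhibitor) and the kinase *Ttk* rose by 3.45, 3.43 and 3.39. *Bub3* and *Mad1l1* were the most abundant genes of the class in WT and, with *Mad2l1* (1.24), rose least. *Bub3* was at 47.9 to 63.5 CPM in WT and 105 to 189 CPM in PCC (1.13 ± 0.19), and *Mad1l1* at 11.7 to 22.3 CPM and 22.2 to 32.8 CPM (0.74 ± 0.19, adjusted p = 0.0115), with groups that overlap.

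Among mitotic kinases and the passenger complex, 5 of 6 rose, with a median of 2.70. *Aurkb*, the kinase that corrects faulty attachments, had 4.18, 3.73, 3.06, 3.32 and 5.48 CPM in WT1 to WT5 and 37.4, 114, 41.0, 67.4 and 39.7 CPM in PCC1 to PCC5. The groups were far apart and the rise was 3.91 ± 0.37 (adjusted p = 9.9e-05). *Plk4*, which starts centriole duplication, rose by 3.28, *Plk1*, the main mitotic polo kinase, by 2.65 ± 0.37, *Birc5* (survivin) by 2.76 and *Cdca8* (borealin) by 1.85 ± 0.39. *Aurka*, the kinase of the spindle poles, went apart from these: it was at 13.5, 15.7, 20.1, 31.4 and 39.2 CPM in WT1 to WT5 and 16.9, 14.0, 13.3, 12.5 and 18.7 CPM in PCC1 to PCC5, with overlap, and was not called (−0.67 ± 0.27, adjusted p = 0.0848). It was called lower with DESeq2 (adjusted p = 0.027) and without WT1 (adjusted p = 0.036). In RefSeq, *Aurka* overlaps *Fam210b*, whose level was 42.1, 44.9, 143, 115 and 195 CPM in WT1 to WT5 and 10.9 to 72.8 CPM in PCC. The library kit does not mark the strand, so reads of such neighbors cannot be told apart and the value of *Aurka* is uncertain. Other named genes overlap a protein-coding neighbor in RefSeq as well, among them *Anln*, *Cdca2*, *Cdca3*, *Cenpt*, *Kif15*, *Kif19*, *Ncapg* and *Plk1*.

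All 5 listed genes of spindle assembly rose, with a median of 3.22. *Prc1*, which bundles the midzone of the spindle, had 2.12, 2.42, 2.16, 2.32 and 3.13 CPM in WT1 to WT5 and 14.8, 41.4, 23.4, 40.7 and 16.5 CPM in PCC1 to PCC5 (3.48 ± 0.35, adjusted p = 0.000107). *Tpx2*, an activator of Aurora A, rose by 3.32 ± 0.36, and *Nusap1*, which binds spindle microtubules near chromosomes, by 3.22 ± 0.40. *Aspm*, which acts at spindle poles, rose by 2.06 ± 0.32. In cytokinesis, *Racgap1* rose by 4.17 ± 0.43, *Anln* (anillin) by 4.03 ± 0.46 and *Ect2* by 3.09 ± 0.39, all 3 genes of the class and without overlap between groups. The Cdca genes outside the passenger complex rose too: *Cdca3*, which targets Wee1 for destruction, by 4.02 ± 0.39, *Cdca2*, a phosphatase partner on chromosomes, by 3.89 ± 0.51, and *Cdca7*, a chromatin factor whose groups overlap, by 1.64 ± 0.46 (adjusted p = 0.0174).

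In the class of chromosome structure, all 7 listed genes rose, but the condensin subunits among them rose least. *Top2a*, which untangles sister chromatids, had 2.98, 2.01, 2.58, 2.57 and 5.12 CPM in WT1 to WT5 and 24.3, 63.8, 38.7, 68.5 and 25 CPM in PCC1 to PCC5 (3.85 ± 0.38, adjusted p = 0.000109; exact permutation p = 0.0079 on CPM, two-sided, the smallest 5 against 5 can give). *Mki67*, which codes for the proliferation antigen Ki-67, rose from 5.53, 6.55, 5.54, 7.45 and 7.25 CPM to 35.2, 65.0, 48.2, 61.6 and 22.4 CPM (2.83 ± 0.29, adjusted p = 0.000124; exact permutation p = 0.0079). The 5 listed condensin subunits rose by 1.07 to 1.66, among them *Ncapd2* by 1.16 ± 0.20 and *Smc2* by 1.25 ± 0.28. *Smc2* had 15.1, 13.2, 21, 15.5 and 38.9 CPM in WT1 to WT5, and WT5 lay within the PCC range of 32.6 to 59.0 CPM.

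**Figure D4:**
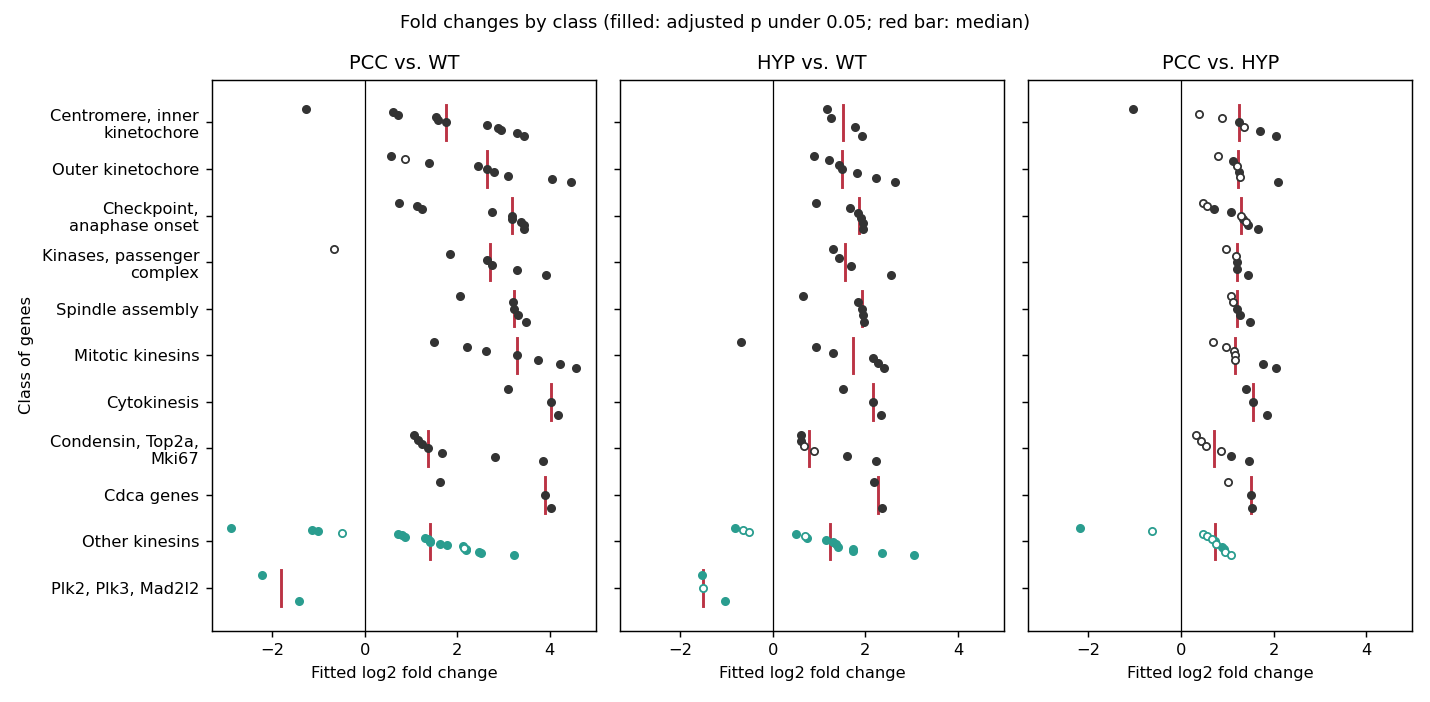
Fitted log2 fold change (horizontal axes) of each tested gene by class (vertical axis) in the 3 comparisons. Filled points were called at an adjusted p under 0.05, open points were not, dark points are core mitotic genes, green points the others, and red bars the class medians. Core medians lie between 1.37 and 4.03 in PCC vs. WT, and fewer points are filled in PCC vs. HYP.

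The kinesins show how mitotic and other members of 1 family differed. All 7 mitotic kinesins tested rose in PCC vs. WT, with a median of 3.29 and no overlap between groups. Of the 8 in the class, *Kif22*, which fell in HYP vs. WT, was not listed in PCC vs. WT. *Kif2c* (MCAK), which removes tubulin from microtubule ends, had the largest rise of all core genes: 1.59, 2.27, 1.42, 1.38 and 0.569 CPM in WT1 to WT5 against 27.1, 45.2, 34.2, 52.1 and 20.2 CPM in PCC1 to PCC5, or 4.56 ± 0.41 (adjusted p = 9.9e-05), 23.7-fold. *Kif18b*, which acts with it on astral microtubules, rose by 4.22 ± 0.52, *Kif14* by 3.75 and *Kif23*, a partner of *Racgap1* in the midzone, by 3.29. The WT mean of *Kif14*, 0.12 CPM, was the lowest of all core genes, so the size of its rise is uncertain. *Kif15*, a spindle motor, rose least, by 1.5 ± 0.31.

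Of the 21 other kinesins, 20 were tested, 15 rose, 3 fell and 2 were not called, with a median of 1.41. *Kif6* had 0 to 2 counts in WT and was removed as too low. *Kif26b* and *Kif26a*, which are signaling proteins without motor activity, rose by 3.22 ± 0.34 and 2.51 ± 0.52. *Kif26b* had 11.5, 19.2, 12.7, 9.70 and 6.12 CPM in WT1 to WT5 and 102, 135, 168, 87.0 and 82.2 CPM in PCC1 to PCC5. The neuronal carriers of vesicles *Kif1a*, *Kif5a* and *Kif5c* rose by 2.20, 2.12 and 2.18. *Kif21b*, a neuronal motor that also paces microtubule growth, fell from 116, 86.8, 134, 115 and 173 CPM to 17.5, 9.17, 30.1, 3.64 and 25.6 CPM (−2.89 ± 0.46, adjusted p = 0.000963). *Kif1b*, a carrier of mitochondria and synaptic vesicle precursors, was the most abundant of the 85 genes and fell from 556 to 1175 CPM in WT to 275 to 526 CPM in PCC (−1.14 ± 0.24, adjusted p = 0.00429; not called with the listed totals, −0.63, adjusted p = 0.071). *Kif1c* fell by 1.01 on the log2 scale.

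**Figure D5:**
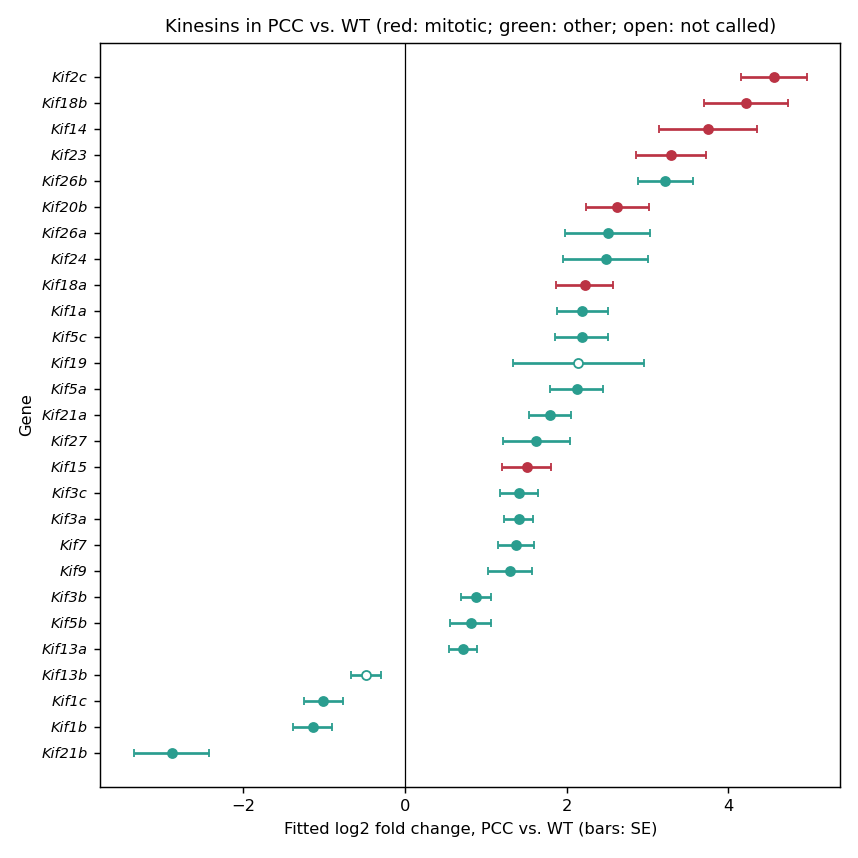
Fitted log2 fold change in PCC vs. WT with its SE (horizontal axis) of the 27 kinesins tested (vertical axis, ordered by value). Mitotic kinesins are red and the others green, and open points were not called. *Kif2c*, *Kif18b*, *Kif14* and *Kif23* lead, *Kif26b* is the highest of the others, and *Kif13b* (open), *Kif1c*, *Kif1b* and *Kif21b* lie below 0.

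Both paralogs tested in PCC vs. WT fell. *Mad2l2*, a subunit of DNA polymerase zeta, fell by 1.42 on the log2 scale (SE 0.24). *Plk3*, a stress-induced kinase, had 199, 158, 73.8, 63.7 and 71.0 CPM in WT1 to WT5 and 24.6, 8.83, 19, 11.6 and 63.7 CPM in PCC1 to PCC5 (−2.21 ± 0.56, adjusted p = 0.0107). WT1 and WT2 were high, and PCC5 just touched the lowest WT sample. *Plk2*, tested only in HYP vs. WT, showed the same WT1 and WT2, with 125 and 118 CPM against 19 to 24.3 CPM in WT3 to WT5.

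WT5 had the lowest chromaffin marker level and the lowest ratio of effective library to recovered total of all samples (0.740). Of the 61 core genes, 32 had their highest WT value in WT5. Among 38 core genes of at least 1 CPM in WT1 to WT4, WT5 was at a median of 1.28 times their mean, and only *Nuf2* and *Kif2c* were under 0.5 times, at 0.312 and 0.342. Among the others, *Kif26a*, *Kif5a*, *Kif5c* and *Kif26b* were at 0.132, 0.337, 0.341 and 0.460 in WT5, and *Plk2* at 0.340. Without WT5, 56 core genes were higher in PCC vs. WT and 40 in HYP vs. WT.

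In HYP vs. WT, the rise was present at the stage of hyperplasia, at smaller size. Of 43 core genes tested 40 were higher (39.5% of the 4108 genes tested were), 1 was lower (32.5%) and 2 were not called. In 38 all HYP samples were above all WT samples (35.7%), and in 1 below (19.1%). The median log2 fold change was 1.78, against −0.37 over all genes tested. *Ndc80* rose most, by 2.64 ± 0.32, followed by *Aurkb* (2.55 ± 0.23, adjusted p = 0.000168), *Kif2c* (2.40 ± 0.33), *Cdca3* (2.36 ± 0.27) and *Anln* (2.34 ± 0.33). *Nuf2* had 10.6, 11.6, 8.32, 6.04 and 6.99 CPM in HYP1 to HYP5 (2.23 ± 0.32). *Top2a* had 14.3, 18.6, 14.4, 11.4 and 15.0 CPM (2.22 ± 0.26) and *Mki67* 19.5, 25.2, 22.9, 17.2 and 17.3 CPM (1.61 ± 0.18, adjusted p = 0.000365), each with an exact permutation p of 0.0079. In *Nuf2*, *Top2a* and *Mki67* all HYP samples were thus above all WT samples. The spread within HYP differed by class: the level of the cytokinesis genes ran from 2.10 in HYP4 to 7.44 in HYP2.

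By class, all tested genes of the inner kinetochore (4), outer kinetochore (7), checkpoint (6), kinases (4), spindle (5), cytokinesis (3) and Cdca group (2) rose in HYP vs. WT. In chromosome structure 4 of 6 rose, and *Smc2* (0.89 ± 0.30, adjusted p = 0.0665) and *Ncapg2* were not called; without WT5 *Smc2* was called (1.23, adjusted p = 0.0021). Among mitotic kinesins 5 of 6 rose and *Kif22* fell, while *Kif14* was listed but removed as too low. *Kif22* (Kid), which pushes chromosome arms, was at 28.7, 20.9, 20.6, 20.8 and 26.7 CPM in WT1 to WT5 and 19, 12.5, 16.4, 13.6 and 14.7 CPM in HYP1 to HYP5, without overlap (−0.68 ± 0.17, adjusted p = 0.0187). It was not called without HYP4 (adjusted p = 0.05), with the listed totals (−0.23) or with the recovered library totals (−0.49, adjusted p = 0.076). The smallest calls were not stable either: *Aspm* (0.66 ± 0.20, adjusted p = 0.0442) was not called when any 1 library other than HYP3 was left out (adjusted p = 0.057 to 0.11), *Cdc20* (0.93 ± 0.24, adjusted p = 0.0217) not without WT3, HYP4 or HYP5 (adjusted p = 0.059 to 0.071), and *Ska3* (0.89 ± 0.24, adjusted p = 0.024) not without WT1, WT2, WT3, HYP2, HYP3 or HYP5 (adjusted p = 0.051 to 0.075).

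Of the other kinesins in HYP vs. WT, 10 of 14 tested rose, 1 fell and 3 were not called. *Kif19*, a motor of cilia, rose most (3.06 ± 0.55), from a mean of only 0.373 CPM in WT1 to WT4 and 0 CPM in WT5. It was higher in HYP (1.61 to 3.49 CPM) than in 4 of 5 PCC samples (0.608 to 1.42 CPM). PCC4 had 3.88 CPM. *Kif26b* had 42.3, 81.1, 44.0, 68.0 and 82.8 CPM (2.37 ± 0.30) and *Kif26a* rose by 1.73 ± 0.44, a call lost without WT4 (adjusted p = 0.052). *Kif21b* fell by 0.82 on the log2 scale (adjusted p = 0.025). Its call was lost without WT3, HYP1, HYP2 or HYP5 (adjusted p = 0.054 to 0.068), with the listed totals (−0.38, adjusted p = 0.59) and with the recovered totals (−0.61, adjusted p = 0.067). *Mad2l2* fell by 1.03 on the log2 scale (adjusted p = 0.0101; 0.20 with the listed totals). *Plk3* fell by 1.52 on the log2 scale (adjusted p = 0.0321), a call lost without WT1, WT2, HYP2, HYP3, HYP4 or HYP5 (adjusted p = 0.061 to 0.077), with the listed totals (−1.06, adjusted p = 0.23), with the recovered totals (adjusted p = 0.067) and with all 15 samples in 1 fit (adjusted p = 0.075).

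In PCC vs. HYP, the core genes were higher again as a set, but single genes were less certain. All these rats were MENX rats, and those of PCC were older than those of HYP. Of 51 core genes tested, 26 were higher (21.8% of the 3148 genes tested were), *Cenpv* was lower (22.6%) and 24 were not called. In 29 all PCC samples were above all HYP samples (31.6%) and in none below (22.7%). The median log2 fold change was 1.20, against 0.43 over all genes tested, which hold genes called in both directions. Over all genes called higher it was 1.42, so the size of the core rise was not unusual among these. The number of higher genes depended on single libraries: it was 9, 14 and 15 without PCC2, PCC3 or PCC4, 12, 5, 4 and 7 without HYP1, HYP3, HYP4 or HYP5, 18 without HYP2, 33 without PCC1 and 39 without PCC5. It was 48 when p-values were adjusted over the listed genes alone, while the median stayed between 0.99 and 1.34 as libraries were left out.

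*Nuf2*, *Kif2c*, *Kif18b* and *Cdc20* were the 4 core genes called higher in PCC vs. HYP whichever library was left out. *Nuf2* rose by 2.10 ± 0.30 (adjusted p = 0.00344) and *Kif2c*, from 7.29, 12, 8.25, 6.74 and 5.89 CPM in HYP1 to HYP5, by 2.04 ± 0.28 (adjusted p = 0.00301). All PCC samples were above all HYP samples in both. *Kif18b* rose by 1.77 ± 0.35 and *Cdc20* by 1.67 ± 0.33 (both adjusted p = 0.0139). *Top2a* rose by 1.46 ± 0.30 (adjusted p = 0.0165; exact permutation p = 0.0079) and was not called without HYP3 or HYP4 (adjusted p = 0.051 and 0.054). *Mki67*, whose PCC5 value of 22.4 CPM lay within the HYP range, rose by 1.08 ± 0.27 (adjusted p = 0.0316; exact permutation p = 0.024), a call lost without PCC2, PCC3, PCC4, HYP1, HYP3, HYP4 or HYP5 (adjusted p = 0.056 to 0.091). Among genes not called were *Cenpf* (1.27 ± 0.37, adjusted p = 0.0571), *Nusap1* (1.09 ± 0.32, adjusted p = 0.0574) and *Ncapd2* (0.43 ± 0.18, adjusted p = 0.233). Genes named here outside the rule for named genes, such as *Ndc80*, *Spc25* and *Kif5a*, were chosen after their values had been seen. Of the other kinesins 3 of 11 tested rose (*Kif5c*, *Kif7* and *Kif21a*, the last the closest relative of *Kif21b*) and *Kif21b* fell by 2.18 on the log2 scale (adjusted p = 0.0195; 0.058 without HYP3, 0.053 without HYP4). The 3 higher calls became 0 without PCC2, HYP1, HYP3 or HYP4 and 1 without PCC1, PCC3, HYP2 or HYP5.

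Mitotic genes outside the name rule were counted too. Of 51 such genes in a list by role, 37 autosomal ones were in the tables, of which 33 rose and 2 fell in PCC vs. WT (median 2.76; 46.7% and 38.5% of all genes tested did). In HYP vs. WT 20 of 25 rose and 2 fell (39.5% and 32.5% of all genes tested). In PCC vs. HYP 14 of 27 rose and none fell (21.8% and 22.6%). *Stmn1*, a microtubule destabilizer that neuroendocrine cells also express, rose from 20.4 to 37.2 CPM in WT to 90.1 to 139 CPM in HYP and 200 to 440 CPM in PCC (3.50 ± 0.30, adjusted p = 8.75e-05, in PCC vs. WT). *Cit*, a kinase of the midbody, fell from 148 to 502 CPM in WT to 23.2 to 124 CPM in PCC (−1.73 ± 0.45, adjusted p = 0.013). For transcription factors of mitotic genes, 9 of 12 rose in PCC vs. WT and none fell (46.7% and 38.5% of all genes tested), 6 of 6 rose in HYP vs. WT (39.5%) and 1 of 7 in PCC vs. HYP (21.8%). In PCC vs. WT they include *Foxm1* from 4.20 to 6.64 CPM to 11.2 to 21.6 CPM (1.61 ± 0.26) and *Tfdp1* by 0.84 ± 0.17.

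Of 10 tested genes in a list of the anaphase-promoting complex, its subunits and regulators, 4 rose and 5 fell in PCC vs. WT, with a median of −0.03, near the 46.7% and 38.5% of all genes tested. Among those that rose is *Fbxo5* (Emi1), an inhibitor of the complex and not a subunit (adjusted p = 0.0313). *Anapc5* rose by 1.11 ± 0.20 (adjusted p = 0.00185). *Anapc2*, the cullin subunit, fell by 2.00 on the log2 scale (adjusted p = 0.00384), and had 628, 815, 364, 360 and 137 CPM in WT1 to WT5 against 97.2 to 145 CPM in PCC, where WT5 lay within the PCC range. For cohesin and its regulators, 3 of 4 rose in PCC vs. WT (46.7% of all genes tested), *Smc3* by 0.55 ± 0.17 and *Pds5b* by 0.50 ± 0.14.

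Within the core, CHR letters and fold change were set side by side as a description. The 37 tested genes with CHR letters in the promoter had a median log2 fold change of 2.80 in PCC vs. WT (0.71 to 4.45), and the 17 without had 1.53 (−1.27 to 4.56). *Kif2c*, *Kif18b* and *Cdca3*, with rises above 4, are among those without the letters.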

How the data were processed

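RNA was sequenced from 15 macrodissected rat adrenal samples, 5 each of WT, HYP and PCC, after poly-T selection of mRNA with a kit that does not mark strand. Per the submitters' processing notes, reads were aligned with HISAT2 2.0.5 and counted with featureCounts 1.5.0-p3; the strand setting of the counting is not given in the sources used here. The authors deposited counts per gene, a normalized signal (counts divided by size factors) and FPKM for the genes that DESeq2 called in each of 3 comparisons. Their fold changes were not used, and their p-values served only to recover how many genes had been tested (18790, 18057 and 17454). Library totals were recovered from counts, FPKM and gene length.

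Counts were filtered with filterByExpr, scaled by TMM over the listed genes and fitted per comparison with edgeR 4.0.16 (quasi-likelihood test, R 4.3.3; samples of the 2 groups only). P-values were adjusted by Benjamini-Hochberg over the number of genes the authors tested, which makes them upper bounds. CPM use 1 TMM scaling over 5492 genes with values in all samples. On simulated counts, the test recovered 87% of genes changed by 1 and 100% of genes changed by 2 (log2) in PCC vs. WT, 79% and 99% in HYP vs. WT and 79% and 100% in PCC vs. HYP. The simulation gave every gene the same dispersion, changed 100 genes by each size and took these only from genes above a count limit. In the data far more genes changed and many core genes were low in WT, so these rates are not the power for the genes described here. Alternatives were DESeq2 1.42.0, other scalings, filters and adjustments, a replicate block, all samples in 1 fit, and leaving out each library. Replicate numbers come from the sample titles and do not state shared animals or batches.

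The genes and lists were chosen with earlier results of these data known. Classes follow known roles. Named genes are the 4 of each class with the highest mean CPM, Mki67, Top2a and Cdkn1b, core genes called lower, the 2 other kinesins and the 2 paralogs with the largest called change in each direction, and the 2 most abundant called genes of each pathway list. Promoter letters came from RefSeq sequences of GRCr8, while the reads had been aligned to another build, so no coordinate of the counted genes is given. Depth limits genes under about 1 CPM.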

Additional observations from a re-analysis of the deposited data

Results flagged for a closer look

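In 10 of 145 groups of 5 samples, 1 sample stood apart from the other 4 by more than 0.71 of the range (Dixon's 95% limit), where chance gives about 1 in 20. In HYP, *Aurkb* was at 34.9 CPM in HYP2 (19.6 to 23.1 CPM in the others), *Cdca3* at 7.42 CPM in HYP1 (3.87 to 4.83 CPM) and *Plk3* at 89.2 CPM in HYP1 (21.2 to 36.6 CPM). In PCC, *Bub3* was at 189 CPM in PCC4 (105 to 126 CPM), *Plk3* at 63.7 CPM in PCC5 (8.83 to 24.6 CPM), and *Kif15* and *Ska2* at 18.4 and 18.1 CPM in PCC2 (9.80 to 12.1 CPM and 12.1 to 13.6 CPM). In WT, *Ska3* was at 5.76 CPM in WT4 (3.43 to 3.98 CPM) and *Tpx2* at 3.49 CPM in WT5 (1.11 to 1.71 CPM). The level of the 5 spindle genes was 1.29 times the WT mean in WT5 (0.868 to 0.954 in the others).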

How the results depend on the processing

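No named gene of the 85 and no median of the core genes changed its sign under the alternatives run. The median over all genes tested in HYP vs. WT, −0.37 with TMM, did not keep its sign with the listed totals, which moved it by 0.46. Of 321 counts and medians under alternatives, 271 stayed within 1.5 times or the spread and 50 moved; of 1859 values of single genes and promoter shares, 1653 kept their call, 161 lost it, 43 gained it and 2 moved. In PCC vs. WT, core genes called lower were 2 with p-values adjusted over the listed genes and with DESeq2, the other kinesins and paralogs called lower were 3 with the listed totals, and the core median was 3.31 with the listed totals. In HYP vs. WT, core genes called lower were 0 with the listed totals, the recovered totals or all 15 samples in 1 fit. The other kinesins and paralogs called lower, 3 as reported, were 6 with adjustment over the listed genes, 5 with the authors' size factors or DESeq2, 0 with the listed totals and 1 with the recovered totals or all 15 samples in 1 fit. The core median was 2.25 with the listed totals and 1.53 with all 15 samples. In PCC vs. HYP, core genes called higher were 48 with adjustment over the listed genes and 41 with all 15 samples; the other kinesins and paralogs were 9 higher and 2 lower with adjustment over the listed genes, 5 higher with the recovered totals and 2 lower with DESeq2. The causes were not tested, except that adjustment over fewer genes gives smaller p-values by construction.

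Leaving out 1 library at a time gave 55 to 57 core genes higher and 1 to 2 lower in PCC vs. WT (median 2.62 to 2.94), 35 to 41 higher and 0 to 1 lower in HYP vs. WT (median 1.62 to 1.86) and 4 to 39 higher and 0 to 1 lower in PCC vs. HYP (median 0.99 to 1.34). For the other kinesins and paralogs it gave 14 to 16 higher and 5 to 6 lower, 8 to 11 higher and 1 to 4 lower, and 0 to 4 higher and 0 to 1 lower. The mean core level ranged from 2.77 to 3.15 in HYP and from 6.67 to 8.66 in PCC.

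With the replicate number as a block, core genes called higher and lower were 54 and 1 in PCC vs. WT, 36 and 1 in HYP vs. WT and 6 and 0 in PCC vs. HYP, and the other kinesins and paralogs 14 and 5, 8 and 3, and 0 and 1. Whether the numbers pair the samples is not known. Correlations of same-numbered samples ranged from −0.24 to 0.26, and samples correlated best with their own number in 2, 2 and 1 cases. Such correlations cannot exclude shared batches.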
